A study of Mus musculus with 32 samples.

Results

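The 10 genes described here mark macrophages or encode the chains of complement C1q. They fall by role into the C1q chains (C1qa, C1qb and C1qc), surface receptors (Adgre1, Csf1r, Mrc1, Cd14 and Slamf9), and products of the lysosome and its secretory relatives (Cd68 and Lyz2). The members were taken by gene name, 10 of the 24952 genes in the tables. All 10 were among the 13990 genes tested, which reached 1 CPM (counts scaled by the library total alone) in 8 or more libraries. C1qc, Csf1r and Lyz2 reached that minimum in 8 or more of the 16 xNMJ libraries. The other 7 genes did not (from 0 libraries for Cd14 to 7 for C1qb and Mrc1) and entered the test only through the NMJ libraries.

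The tibialis anterior (TA) muscles of wild type male C57BL/6JRj mice were cut into sections, and synaptic regions, found by α-bungarotoxin staining of acetylcholine receptors, were collected by laser capture and compared with extra-synaptic regions of the same muscle type. The 4 groups of 8 libraries were 10m NMJ and 10m xNMJ, from mice 10 months old kept 2 to 3 months on the AIN93M diet, and 30m NMJ and 30m xNMJ, from mice 30 months old kept 16 months on it. All mice were labelled wild type and were caged singly, and age and time on the diet cannot be told apart. Every library pooled many captured regions, and the labels did not say which libraries came from 1 animal, so p-values measure only the spread between these libraries, which may be technical. Total counts ran from 4026648 to 16516788, and the NMJ libraries were deeper, with group medians of 9605869 (10 months) and 9825357 (30 months) where the xNMJ medians were 6062117 and 6790011. Insert sizes were also longer in NMJ libraries by group median, at 117.5 and 107 bp where the xNMJ medians were 93.5 and 96 bp. The exception was 10m NMJ replicate 8, at 52 bp the shortest of the 32 libraries. The part of depth and insert size in the regional differences was tested only with a term for insert size.

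Macrophages reside between muscle fibres and around nerve and vessels, where they engulf debris and respond to injury. They are the main source of C1q, the recognition molecule of the classical complement pathway. C1q assembles from A, B and C chains, binds antibody or altered surfaces, and activates the proteases C1r and C1s, which in turn cleave C4 and C2. In the brain C1q is known for marking synapses for removal by microglia.

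The captured regions were first checked against fixed marker lists. The summed level of 8 synaptic fibre genes, in TPM (transcript levels scaled by length and library total), ranged from 621.1 to 1289 in 10m NMJ and from 970.2 to 1333 in 30m NMJ, and from 9.748 to 19.52 in 10m xNMJ. In 30m xNMJ it had a median of 20.98, but replicate 5 held 165.3, the highest of the 16 xNMJ libraries. Along the first principal component, the axis of largest variation between libraries over all tested genes, replicate 5 lay at 21.66. The other xNMJ libraries lay from -85.77 to -38.5 and the NMJ libraries from 30.87 to 86.6. Replicate 5 was kept with 30m xNMJ in the main fit, and the cause of its position was not tested. A second 30m xNMJ library stood apart in other genes. Replicate 2 had the highest summed level of 29 further macrophage genes in its group (297.6 TPM, group median 81.52) and of red blood cell markers (29580 TPM, group median 7834).

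Of the 10 genes, 4 were higher in NMJ than in xNMJ regions at both ages (C1qb, Mrc1, Cd14 and Lyz2), C1qa, Slamf9 and Cd68 passed at 10 months, C1qc and Adgre1 passed at 30 months, and Csf1r passed at neither age. With a replicate block, a term for replicate number, Adgre1 and Csf1r also passed at 10 months, C1qa at 30 months and all 10 over both ages. The labels do not tie these numbers to animals. At 10 months, 7 of the 10 genes rose in NMJ regions (C1qa, C1qb, Mrc1, Cd14, Slamf9, Cd68 and Lyz2) and 0 fell, where 6.5% of all tested genes rose and 5.05% fell, and 9 of 10 had an unadjusted p under 0.05, as did 22.8% of all tested genes. At 30 months, 6 of 10 rose (C1qb, C1qc, Adgre1, Mrc1, Cd14 and Lyz2) and 0 fell, against 5% and 4.25% of all tested genes, and the same 6 of 10 had an unadjusted p under 0.05, where 20.7% of all genes did. The median log2 fold change of the 10 genes was 3.84 at 10 months and 3.11 at 30 months, where that of all tested genes was 0.0036 and -0.0143. Averaged over both ages, 8 of 10 rose and 0 fell, against 10.7% and 8.84% of tested genes. All 10 had an unadjusted p under 0.05, as did 30.8% of tested genes, and only Csf1r (edgeR adjusted p = 0.134) and Slamf9 (adjusted p = 0.0558) did not pass. DESeq2 called 8 of the 10 genes at 10 months, 6 at 30 months and 9 over both ages, where it called 8.78%, 6.73% and 13% of all tested genes higher. Over both ages it called Slamf9 (adjusted p = 0.0491) but not Csf1r (adjusted p = 0.0878), and limma on log2(TPM + 1) called both, with adjusted p = 0.0187 for Slamf9 and 0.000341 for Csf1r. Since 7 of the 10 genes entered the test only through the NMJ libraries, in which they were higher, these counts and medians are descriptions and no support for a difference of the 10 genes as a whole. The regional p-values of those 7 genes (C1qa, C1qb, Adgre1, Mrc1, Cd14, Slamf9 and Cd68), here and in the passages below, are descriptions for the same reason. Of C1qc, Csf1r and Lyz2, which met the minimum in xNMJ libraries alone, 1 of 3 rose at 10 months (Lyz2), and C1qc and Lyz2 rose at 30 months and over both ages. Of all 11061 genes that met it there, 4.38% rose at 10 months, 3.54% at 30 months and 7.45% over both ages. By median level, both NMJ groups lay above both xNMJ groups for all 10 genes, in TPM as in CPM. The CPM levels given for each gene were also scaled by TMM factors, which adjust for differences in library composition. In captured tissue a higher number of macrophages and more RNA per macrophage cannot be told apart.

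**Figure D1:**
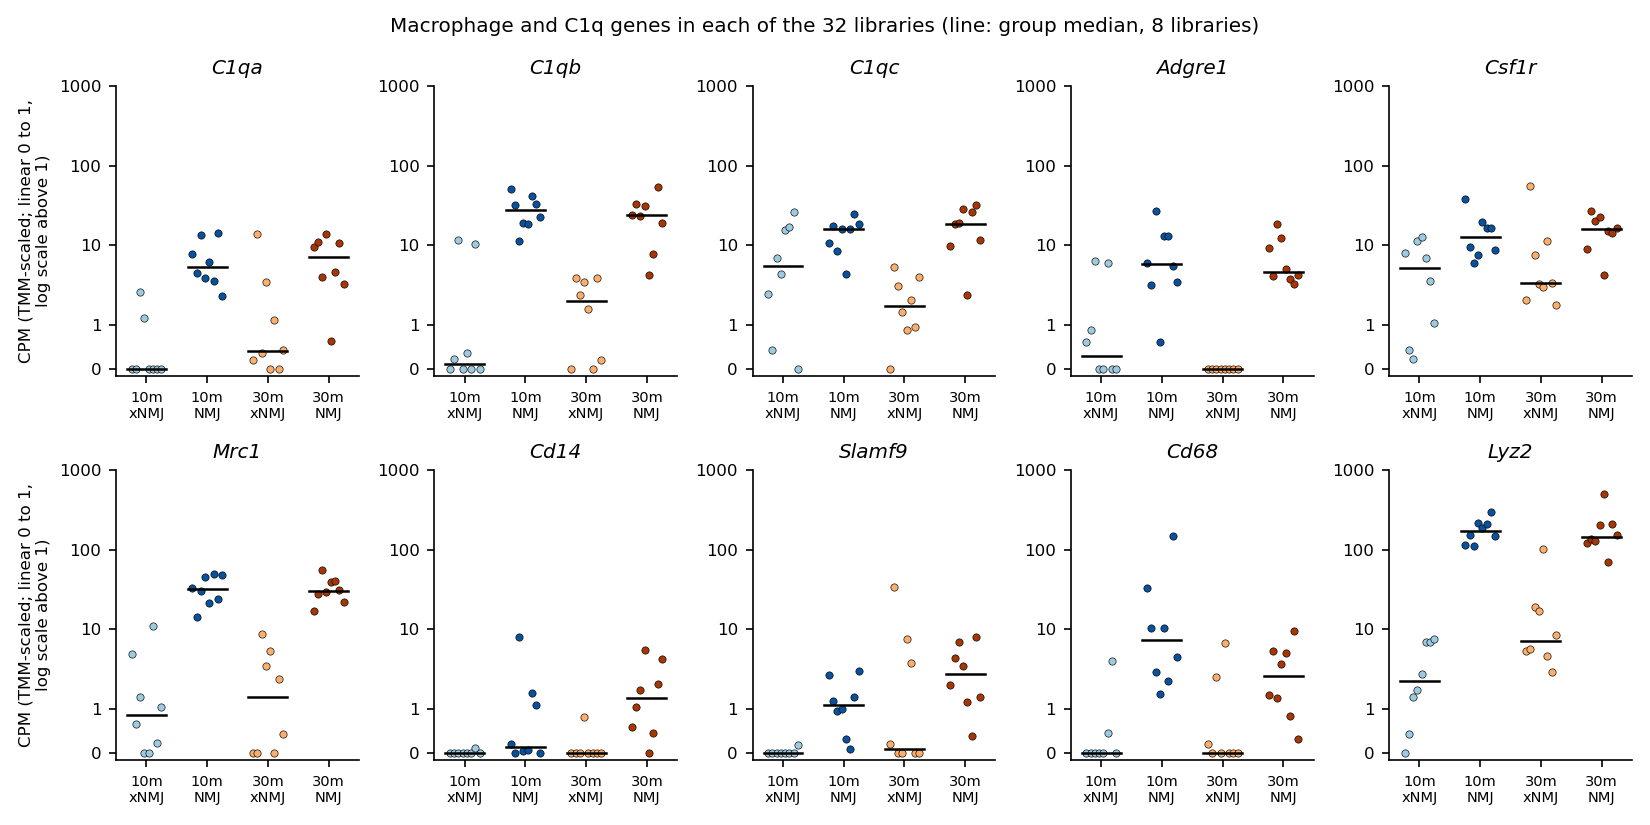
TMM-scaled CPM (vertical axis, linear from 0 to 1 and logarithmic above 1) of the 10 genes in each of the 32 libraries, by group, with lines at the group medians. Lyz2 reached 499 CPM and had the highest values, and Adgre1 was at 0 in all 8 libraries of 30m xNMJ.

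Only some of these differences separated every library. NMJ and xNMJ libraries did not overlap for 2 genes at 10 months (Mrc1 and Lyz2) and for 3 genes at 30 months (C1qb, Adgre1 and Mrc1), where 2.22% and 1.96% of all tested genes had all NMJ libraries above all xNMJ libraries. Of these genes, C1qb, Adgre1 and Mrc1 entered the test only through the NMJ libraries, so their separation is a description. The share among genes that met the minimum in xNMJ libraries alone was not computed. For 0 of the 10 genes did all NMJ libraries lie below, where 1.19% and 0.5% of tested genes did. These calls came from edgeR's quasi-likelihood test on counts. With limma on log2(TPM + 1), which shifted the median of all genes by 0.37 at 10 months and 0.49 at 30 months, 2681 genes rose and 237 fell at 10 months and 3501 rose and 60 fell at 30 months, where edgeR gave 909 and 706, and 700 and 595. Under that setting 8 of the 10 genes rose at each age. In a model with a term for insert size, Cd14 no longer passed at 10 months (adjusted p = 0.0967) or at 30 months (adjusted p = 0.0589), and the calls of the other members at each age held.

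**Figure D2:**
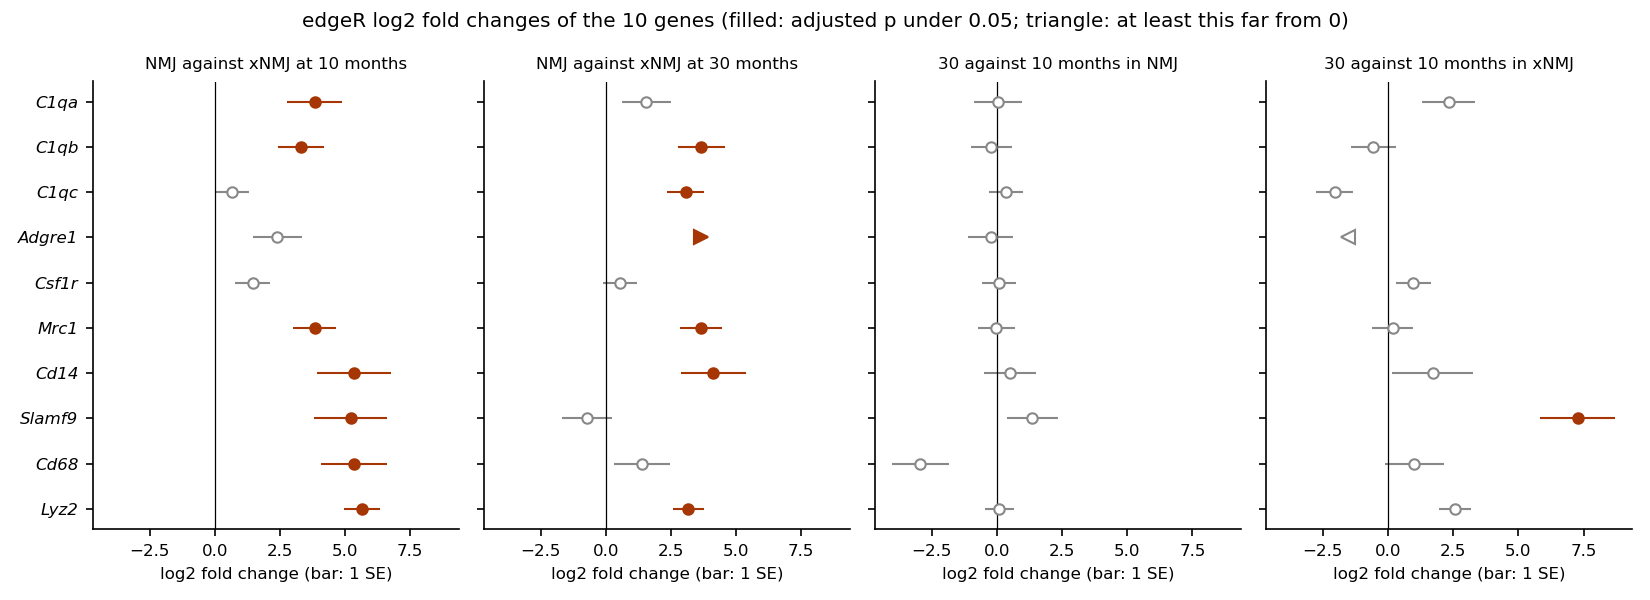
edgeR log2 fold changes (horizontal axis) with 1 standard error for the 10 genes in 4 comparisons, with filled points where the adjusted p was under 0.05 and triangles where Adgre1 was at 0 in one group and a bound is drawn. Filled points are found on the right in 7 genes at 10 months and 6 at 30 months between regions, in 0 genes by age in NMJ regions and in Slamf9 by age in xNMJ regions.

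The C1q genes lie next to each other on the minus strand of chromosome 4 (GRCm38, GENCODE M21 annotation). C1qb spans chr4:136880129-136886187, C1qc chr4:136889804-136893065 and C1qa chr4:136895917-136898803, within 18675 bases in all. Promoter windows from RefSeq (GRCm38.p6), each reaching from 250 bases before to 50 bases after the start site, were found for 6 of the 10 genes (C1qb, C1qc, Lyz2, Mrc1, Slamf9 and Cd68). They were searched on both strands for AGGAAGT, a form of the site bound by ETS factors such as PU.1 (gene Spi1), a regulator of macrophage genes. The motif was chosen after the windows had been read. It was present in 5 of the 6 windows, all but that of Cd68, and in 9.35% of all 32851 windows. The stretches around it are shown for the 5 genes whose window holds it, and the capitals mark the motif or its reverse complement. The stretches are C1qb at chr4:136886236-136886264 (minus strand), C1qc at chr4:136893092-136893120 (minus), Lyz2 at chr10:117282355-117282383 (minus), Mrc1 at chr2:14229192-14229220 (plus) and Slamf9 at chr1:172475217-172475245 (plus). None of them overlaps an annotated exon of its own gene, and exons of other genes were not checked.
C1qb: caggacctgaaACTTCCTgagggcagcag
C1qc: ggacggcagacACTTCCTcattttggcac
Lyz2: gatcggtaggaACTTCCTgttttgcacac
Mrc1: cacttctccccACTTCCTgcgttttctcc
Slamf9: aagtctgtattAGGAAGTgagatttgggt
The match is a description of these letters and no evidence of binding, and it does not set these 5 genes apart, since Cd68 also rose in NMJ regions at 10 months. The transcript of Spi1 itself, at 1.92 TPM on average, had a log2 fold change of 0.64 ± 0.67 (SE) between regions over both ages (adjusted p = 0.559).

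C1qb, which encodes the B chain, had the highest mean TPM of the chains in NMJ regions. In CPM it ranged from 11.3 to 50.6 CPM in 10m NMJ with a median of 27.6, and from 0 to 11.6 CPM with a median of 0.112 in 10m xNMJ. At 30 months it ranged from 4.30 to 54.5 CPM in NMJ (median 23.8) and from 0 to 3.91 CPM in xNMJ (median 1.98). All but 1 of the 10m NMJ libraries exceeded every 10m xNMJ library, and at 30 months the groups did not overlap. C1qb rose by a log2 fold change of 3.31 ± 0.88 (SE) at 10 months (adjusted p = 0.00955) and of 3.66 ± 0.90 at 30 months (adjusted p = 0.00593). C1qb and C1qa entered the test only through the NMJ libraries, so their regional p-values are descriptions.

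C1qa, the A chain, ranged from 2.34 to 14.3 CPM in 10m NMJ (median 5.40) and from 0 to 2.60 CPM in 10m xNMJ, where 6 of 8 libraries held no count. It rose by 3.84 ± 1.06 at 10 months (adjusted p = 0.0131). At 30 months it ranged from 0.645 to 13.8 CPM in NMJ (median 7.12) and from 0 to 13.9 CPM in xNMJ (median 0.405). The highest xNMJ value was replicate 2, which lay above every NMJ library, and the next was 3.51 CPM. The 30-month difference did not pass with that library (1.55 ± 0.94, adjusted p = 0.372) and passed without it (3.16, adjusted p = 0.036).

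C1qc, the C chain, did not pass at 10 months and rose in NMJ regions at 30 months. In 10m xNMJ it was found in 7 of 8 libraries, from 0 to 26.3 CPM with a median of 5.59, and in 10m NMJ it ranged from 4.41 to 25.0 CPM with a median of 16.1. These groups overlapped, and the log2 fold change of 0.67 ± 0.66 did not pass (adjusted p = 0.599). In 30m xNMJ it ranged from 0 to 5.33 CPM (median 1.74) and in 30m NMJ from 2.42 to 32.3 CPM (median 18.8). Of the 30m NMJ libraries, only replicate 5 lay within the xNMJ range, and C1qc rose by 3.06 ± 0.72 (adjusted p = 0.0042). The change of the regional difference with age, 2.39 ± 0.95, did not pass (interaction adjusted p = 0.843, unadjusted 0.0171).

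Within single libraries the chains were compared in TPM, which is scaled by transcript length. C1qb had the highest TPM of the 3 chains in 7 of 8 libraries of 10m NMJ and in 7 of 8 of 30m NMJ. Its mean was 3.86 times that of C1qa and 2.19 times that of C1qc in 10m NMJ, and 3.25 and 1.46 times in 30m NMJ. In 10m xNMJ, C1qc was instead the highest chain in 6 of 8 libraries. All 3 chains were found in all 16 NMJ libraries, in 1 of 8 libraries of 10m xNMJ and in 4 of 8 of 30m xNMJ. Their summed TPM had medians of 61.6 in 10m NMJ and 63.9 in 30m NMJ, against 9.16 in 10m xNMJ and 5.05 in 30m xNMJ. Replicate 5 of 30m NMJ had the lowest sum of its group at 8.05 TPM.

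**Figure D3:**
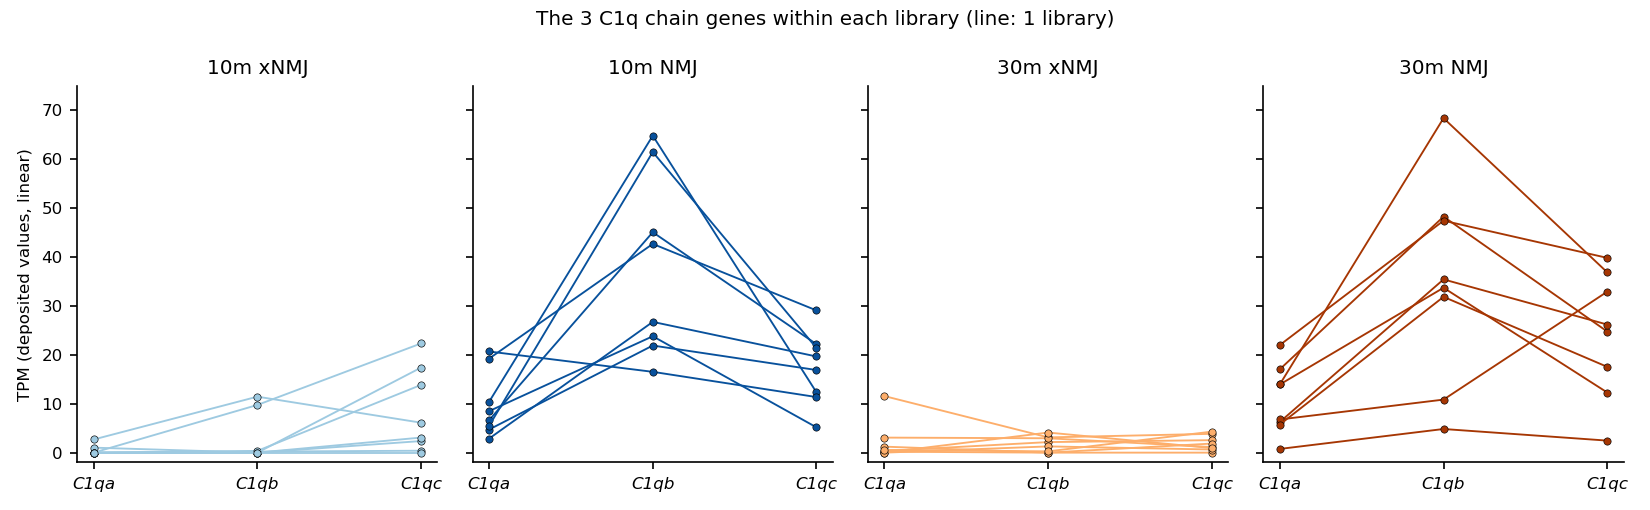
TPM (vertical axis, linear) of C1qa, C1qb and C1qc in each library, with a line joining the chains of 1 library, in the 4 groups. In NMJ regions most lines peak at C1qb, which reached 68.4 TPM in 30m NMJ, and in 10m xNMJ most rise to C1qc, up to 22.3 TPM.

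Of the surface receptors, Mrc1 (chr2:14229392-14332057, plus strand), which encodes the mannose receptor CD206 of resident macrophages, separated the regions at both ages. It ranged from 14.4 to 49.0 CPM in 10m NMJ (median 31.8) and from 17.0 to 56.2 CPM in 30m NMJ (median 30.4). In xNMJ regions it reached at most 11.1 CPM at 10 months (median 0.870) and 8.75 CPM at 30 months (median 1.42). No xNMJ library reached the lowest NMJ library of its age. Mrc1 rose by 3.84 ± 0.82 at 10 months (adjusted p = 0.00141) and by 3.64 ± 0.80 at 30 months (adjusted p = 0.0024). All surface receptors among the members but Csf1r entered the test only through the NMJ libraries, so their regional p-values are descriptions.

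Adgre1 (chr17:57358691-57483527, plus strand) encodes F4/80, the classical marker of mouse macrophages. It was detected in all 16 NMJ libraries, from 0.627 to 27.2 CPM in 10m NMJ (median 5.79) and from 3.28 to 18.6 CPM in 30m NMJ (median 4.63). In 10m xNMJ, 4 of 8 libraries had counts and the highest, replicate 3, had 6.38 CPM. In 30m xNMJ there was no count in any of the 8 libraries, where 3 counts per library would correspond to 0.606 CPM on average. The 10-month groups overlapped and their difference of 2.40 ± 0.94 did not pass (adjusted p = 0.105), although it passed without 10m xNMJ replicate 3 or replicate 6 (lowest adjusted p = 0.0419) and with DESeq2 (adjusted p = 0.0439). At 30 months Adgre1 was at least 12.5-fold higher in NMJ (adjusted p = 0.000219).

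Csf1r, the receptor for the macrophage growth factors CSF1 and IL-34, was detected in all 32 libraries and its groups overlapped at both ages. It ranged from 6.09 to 38.4 CPM in 10m NMJ (median 12.9) and from 0.236 to 12.8 CPM in 10m xNMJ (median 5.26). At 30 months it ranged from 4.30 to 26.8 CPM in NMJ and had a median of 3.33 CPM in xNMJ, where replicate 2 held 55.4 CPM, above every other library. The log2 fold changes of 1.46 ± 0.67 at 10 months (adjusted p = 0.179) and 0.56 ± 0.65 at 30 months (adjusted p = 0.699) did not pass. Without 30m xNMJ replicate 2 the 30-month difference was 1.81 and did not pass (adjusted p = 0.0547), and the difference over both ages was 1.64 and passed (adjusted p = 0.00348).

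Cd14, the co-receptor that hands lipopolysaccharide to TLR4, was rare in every group. It ranged from 0 to 8.02 CPM in 10m NMJ (median 0.143) and from 0 to 5.45 CPM in 30m NMJ (median 1.39). The xNMJ libraries together held 1 count at 10 months and 4 counts at 30 months, each in a single library. Replicate 3 alone gave 72.2% of the summed CPM of 10m NMJ, and without it Cd14 no longer met the minimum and was not tested. The difference passed at 10 months (log2 fold change 5.34 ± 1.42, adjusted p = 0.00952), with 124 counts against 1, a depth-scaled ratio of 52.0 with a 95% interval from 9.16 to 2070. At 30 months it was 4.12 ± 1.25 (adjusted p = 0.0302) and was lost in 7 of the 24 fits that left out 1 library and still tested the gene.

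Slamf9 (chr1:172475358-172478575, plus strand), a SLAM family receptor of antigen-presenting cells, was present in every NMJ library, from 0.0938 to 3.00 CPM in 10m NMJ (median 1.13) and from 0.384 to 8.07 CPM in 30m NMJ (median 2.72). In 10m xNMJ it had 1 count in 1 of 8 libraries. It rose in NMJ at 10 months (5.21 ± 1.41, adjusted p = 0.0107), with 152 counts against 1 and a ratio of 63.7 (95% interval from 11.3 to 2530). In 30m xNMJ, 4 of 8 libraries held none, and replicates 2, 5 and 6 held 33.8, 7.52 and 3.79 CPM. The 30-month difference was -0.71 ± 0.96 (adjusted p = 0.746) and turned to 1.04 without replicate 2, and neither value passed. Over both ages the difference was 2.25 (adjusted p = 0.0558), and without replicate 2 it was 3.13 and passed (adjusted p = 0.00363). These intervals and those of Cd14 cover counting error only, since PCR copies were not told apart by molecular identifiers.

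Lyz2 (chr10:117277331-117282321, minus strand), which encodes lysozyme M of macrophages and neutrophils, was the most abundant of the 10 genes, at 106 TPM on average. It ranged from 110.0 to 294 CPM in 10m NMJ, with a mean of 179 ± 60.8 (SD, n = 8), and from 0 to 7.48 CPM in 10m xNMJ, with a mean of 3.46 ± 3.14. No library of one region reached the other at 10 months, and Lyz2 rose by 5.64 ± 0.69 on the log2 scale (adjusted p = 4.63e-07). At 30 months it ranged from 70.2 to 499 CPM in NMJ (median 144) and from 2.88 to 103 CPM in xNMJ (median 7.08). The highest xNMJ library was replicate 5, the library with raised synaptic genes, and it alone overlapped the NMJ libraries. Lyz2 rose by 3.17 ± 0.60 at 30 months (adjusted p = 0.000519) and by 4.39 without that library (adjusted p = 4.58e-07). The neighbouring paralog Lyz1 is nearly identical in sequence and can share reads with Lyz2, so how counts were divided between them is uncertain. Lyz1 averaged 0.163 CPM in xNMJ and 10.3 CPM in NMJ at 10 months, and 2.04 and 15.1 CPM at 30 months. It rose by 5.87 ± 0.90 at 10 months (adjusted p = 1.79e-05) and 2.84 ± 0.72 at 30 months (adjusted p = 0.00709). Lyz1 reached 1 CPM in only 3 xNMJ libraries and entered the test through the NMJ libraries, so these values are descriptions.

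Cd68 (chr11:69664213-69666153, minus strand), a glycoprotein of macrophage lysosomes, was uneven between libraries. It ranged from 1.57 to 147 CPM in 10m NMJ with a median of 7.43, and replicate 7 alone gave 69.3% of the summed CPM of that group. In 10m xNMJ, 2 of 8 libraries held counts, at 0.463 and 4.04 CPM. It rose by 5.35 ± 1.26 at 10 months (adjusted p = 0.00345), and by 3.89 without replicate 7 of 10m NMJ (adjusted p = 0.0319). At 30 months it ranged from 0.332 to 9.51 CPM in NMJ and from 0 to 6.73 CPM in xNMJ, where 3 of 8 libraries held counts and the highest was replicate 5. That difference, 1.40 ± 1.08, did not pass (adjusted p = 0.512), nor did the 2.99 without replicate 5 (adjusted p = 0.117). Cd68 entered the test only through the NMJ libraries, so its regional p-values are descriptions.

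Age changed few of these levels beyond the spread between libraries. In NMJ regions 0 of the 10 genes passed between 30 and 10 months, where 0% of all tested genes passed with edgeR, and the median log2 fold change of the 10 was 0.06 against 0.02 for all genes. At an unadjusted p under 0.05 edgeR had 372 genes (2.66%), 1 of them among the 10, and DESeq2 called 1 gene and 0 of the 10. The gene with the low unadjusted p was Cd68, whose 30m NMJ libraries had a median of 2.575 CPM against 7.43 in 10m NMJ (log2 fold change -2.94 ± 1.10, adjusted p = 1). Without 10m NMJ replicate 7 it was -1.43. The other 9 genes had log2 fold changes from -0.24 (Adgre1) to 1.36 (Slamf9) in NMJ regions. The C1qb and Mrc1 values, -0.21 ± 0.79 and -0.02 ± 0.71, were smaller than their errors.

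In xNMJ regions 1 of the 10 genes passed with age, where 0.0357% of all tested genes rose and 0.00715% fell, and 5 had an unadjusted p under 0.05, as did 9.45% of tested genes. Slamf9 rose from 1 count in 8 libraries to 289 counts in 4 of 8 libraries (log2 fold change 7.28 ± 1.44, adjusted p = 0.0345, ratio 288 with a 95% interval from 51.3 to 11400). Replicate 2 gave 74.6% of its summed CPM in 30m xNMJ. The call was lost in 10 of the 32 fits that left out 1 library, among them those without replicate 2 (5.54, adjusted p = 0.0843) and without replicate 5 (7.21, adjusted p = 0.05), and when only the 2 xNMJ groups were fitted (adjusted p = 0.789). Lyz2 had a log2 fold change of 2.57 ± 0.62 that did not pass with edgeR (adjusted p = 0.121) and passed with DESeq2 (adjusted p = 0.0136). Without replicate 5 it was 1.34 in edgeR (adjusted p = 0.307). Adgre1, with no count in 30m xNMJ, was at least 2.87-fold lower there than in 10m xNMJ, which did not pass with edgeR (adjusted p = 0.118) and passed with DESeq2 (adjusted p = 0.00127). C1qc had -2.04 ± 0.70 (adjusted p = 0.329) and C1qa 2.32 ± 1.03 (adjusted p = 0.452), and neither passed. Replicate 2 gave 70.9% of the summed C1qa CPM of 30m xNMJ, and without it the C1qa value was 0.71 (adjusted p = 0.895).

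Whether the regional difference itself changed with age was tested by the interaction term. With edgeR 0 of the 10 genes and 0% of all tested genes passed. At an unadjusted p under 0.05 there were 708 genes (5.06%), 5 of them among the 10 (C1qc, Adgre1, Slamf9, Cd68 and Lyz2), and DESeq2 called 9 genes and 0 of the 10. Several of these terms moved without 1 of the 30m xNMJ libraries. Without replicate 5 the term of Lyz2 went from -2.48 to -1.25 and that of Cd68 from -3.95 to -2.35, and without replicate 2 that of Slamf9 went from -5.92 to -4.18 and that of C1qa from -2.28 to -0.67. Averaged over both regions, 0 of the 10 genes and 0% of all tested genes passed between 30 and 10 months with edgeR, with 1039 genes (7.43%) and 3 of the 10 at an unadjusted p under 0.05. DESeq2 called 48 genes there, with Slamf9 (4.19) and Adgre1 among them. Adgre1 was lower at 30 months, but it had no count in 30m xNMJ, so no exact fold is given.

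Other genes of macrophages were read from a list of 29 matched genes. Of 24 tested, 6 rose at 10 months and 8 over both ages, where 6.5% and 10.7% of all tested genes rose. At 30 months 1 of 24 rose with edgeR, where 5% of all tested genes did, and DESeq2 called 5 (Ctss, Fcgr3, Ms4a7, Trem2 and Tyrobp), where it called 6.73% of all tested genes higher. With edgeR 0 were lower in any of these comparisons. The median log2 fold change of the list was 1.64 at 10 months, 0.50 at 30 months and 1.21 over both ages, against 0.0036, -0.0143 and 0.01 for all tested genes. Of the 24 genes, 10 met the minimum of 1 CPM only with the NMJ libraries, so these counts and medians are descriptions too. Fcgr3, Msr1 and Trem2 were among those 10, and their p-values below are also descriptions. Among the 14 that met it in xNMJ libraries alone, 3 rose at 10 months, 1 at 30 months and 5 over both ages, where 4.38%, 3.54% and 7.45% of the 11061 such genes rose. Fcgr3, an activating Fc receptor, rose by 3.21 ± 0.60 over both ages (adjusted p = 0.000122). The protease cathepsin S gene Ctss rose by 2.19 ± 0.42 (adjusted p = 0.000172) and the scavenger receptor gene Msr1 by 4.40 ± 0.89 (adjusted p = 0.000299). The signalling adaptor Tyrobp rose by 2.37 ± 0.51 (adjusted p = 0.000702), its partner receptor Trem2 by 2.77 ± 0.63 (adjusted p = 0.00129), and Ms4a7, a membrane protein of resident macrophages, by 1.55 ± 0.44 (adjusted p = 0.00924). Ms4a7 was the gene that passed at 30 months (2.02, adjusted p = 0.0341), a call lost in 7 of the 32 fits without 1 library. The most abundant gene of the list, Pf4, a chemokine also stored in platelets, averaged 53.3 TPM and rose at 10 months (3.99 ± 1.02, adjusted p = 0.00668), with a log2 fold change of 0.12 at 30 months. Cx3cr1, the fractalkine receptor (-0.22 ± 0.27, adjusted p = 0.613), and Ptprc, the pan-leukocyte CD45 (-0.24 ± 0.71, adjusted p = 0.86), did not pass. The summed TPM of the list did not overlap between regions at 10 months (194.6 to 453.7 in NMJ, 25.28 to 118.4 in xNMJ) and overlapped at 30 months (145.0 to 417.7 in NMJ, 38.89 to 297.6 in xNMJ).

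Complement genes acting with or after C1q were also examined. Of 15 tested early components and inhibitors, 4 rose at each age and 8 over both ages, with 0 lower, where 6.5%, 5% and 10.7% of all tested genes rose at 10 months, at 30 months and over both ages. The median of these genes was 1.49 at 10 months, 0.93 at 30 months and 1.25 over both ages. Of the 15 genes, 7 met the minimum only with the NMJ libraries, C2, C4b and Cfb among them, so the p-values of these 7 are descriptions. Among the other 8, 3 rose at 10 months, 1 at 30 months and 4 over both ages, beside the same shares of the 11061 genes. C1s1, the protease activated with C1q, rose by 1.45 ± 0.42 over both ages (adjusted p = 0.012). C1ra, its partner protease, had 1.21 ± 0.46 and did not pass with edgeR (adjusted p = 0.0605). DESeq2 called C1ra and its paralog C1rb over both ages, with 10 of the 15 genes called in all. C4b, the next substrate, rose from means of 0.802 CPM in 10m xNMJ and 2.20 in 30m xNMJ to 9.12 in 10m NMJ and 25.8 in 30m NMJ (3.44 ± 0.63, adjusted p = 9.38e-05), and C2 rose by 3.95 ± 0.79 (adjusted p = 0.000286). The alternative pathway gene Cfb rose by 3.22 ± 0.79 (adjusted p = 0.00266). Of the inhibitors, Serping1, which blocks C1r and C1s, rose by 1.95 ± 0.24 (adjusted p = 1.47e-07) and Cd55, the most abundant gene of the list at 32.4 TPM, by 1.07 ± 0.24 (adjusted p = 0.00124). C3, the central component, had -0.10 ± 0.42 over both ages (adjusted p = 0.903), with values of opposite sign at the ages. Its mean was 17.6 CPM in xNMJ and 6.66 in NMJ at 10 months (-1.41 ± 0.61, adjusted p = 0.15), and 14.8 and 34.3 CPM at 30 months (1.21 ± 0.60, adjusted p = 0.255). The interaction term of C3 was 2.61 ± 0.86 and did not pass (adjusted p = 0.738), and it had an unadjusted p under 0.05.

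Of 4 terminal complement genes tested, 0 passed over both ages with edgeR or DESeq2 and 1, clusterin, had an unadjusted p under 0.05, as did 30.8% of all tested genes. Clusterin (Clu), the most abundant at 38.8 TPM, rose at 10 months (1.17 ± 0.39, adjusted p = 0.0475), a call that was lost in 21 of the 32 fits without 1 library. Of 8 tested receptors for complement and C1q, 3 rose over both ages and 2 fell, where 10.7% and 8.84% of all tested genes did, and the median was 0.50. Calreticulin (Calr), the most abundant at 99.2 TPM, rose by 0.70 ± 0.12 (adjusted p = 3.66e-05), its partner Lrp1 by 1.63 ± 0.29 (adjusted p = 5.11e-05) and the anaphylatoxin receptor C3ar1 by 2.06 ± 0.57 (adjusted p = 0.00809). C5ar2, a receptor for C5a, fell by 1.48 on the log2 scale (adjusted p = 2.67e-05). The mitochondrial C1q-binding protein gene C1qbp fell by 0.44 (adjusted p = 0.0159), but had a value of 0.08 by limma on log2(TPM + 1).

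Among 6 tested genes for ligands of CSF1R and for the TLR4 complex that works with CD14, 2 rose over both ages, where 10.7% of all tested genes rose, and the median was 0.82. Lbp, which carries lipopolysaccharide to CD14, rose by 2.25 ± 0.45 (adjusted p = 0.000245) and Tlr4 by 2.00 ± 0.65 (adjusted p = 0.0258), a call that was lost with the insert size term. The CSF1R ligands Csf1 (0.95 ± 0.59, adjusted p = 0.286) and Il34 (0.67 ± 0.72, adjusted p = 0.571) did not pass. Ly96, the TLR4 partner MD-2 and the most abundant of the list at 4.95 TPM, had 0.10 ± 0.99 (adjusted p = 0.958). Of 6 tested monocyte chemokines, 2 rose over both ages, beside the same 10.7%, with a median of 1.16. Ccl8, the most abundant at 34.4 TPM, rose by 5.54 ± 0.87 (adjusted p = 9.85e-06). Ccl12 had no count in any xNMJ library at 10 months and was at least 3.49-fold higher in NMJ (adjusted p = 0.00668). Ccl2, the main attractant of CCR2-positive monocytes, had 0.00 ± 0.73 (adjusted p = 1). In the xNMJ libraries alone the minimum of 1 CPM was met by 6 of the 8 receptors, 1 of the 6 ligand and TLR4 genes and 3 of the 6 chemokines, so their counts are descriptions as well. C3ar1, Tlr4, Ccl8 and Ccl12 met it only with the NMJ libraries, so their p-values are descriptions too. Of the 62 tested genes of these macrophage, complement, ligand and chemokine lists, 0 passed with age in either region with edgeR. At an unadjusted p under 0.05 there were 3 of 62 in NMJ and 11 of 62 in xNMJ regions, where 2.66% and 9.45% of all tested genes had one, and DESeq2 called 0 in NMJ and 1 in xNMJ regions, the oxidase gene Cybb.

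Markers of other cells moved with the same regional contrast, in which 10.7% of all tested genes rose and 8.84% fell. Over both ages 6 of 6 tested Schwann cell markers rose (1 of them met the minimum in xNMJ libraries alone), and their summed TPM had medians of 124.9 in 10m NMJ and 115.4 in 30m NMJ against 3.417 and 3.484 in the xNMJ groups. Of 7 tested mast cell markers, 0 of which met that minimum in xNMJ libraries, 6 rose, with median sums of 36.39 and 66.31 TPM in NMJ against 1.118 and 0.6825 in xNMJ, and Cma1, a mast cell chymase, was the most abundant at 14.4 TPM. Cpa3, a defining mast cell protease, was at 0 in both xNMJ groups. Of 6 tested fibro-adipogenic progenitor markers 3 rose, led by Dcn at 372 TPM. Of 3 tested muscle stem cell markers, 2 of which met the minimum in xNMJ libraries alone, Sdc4 rose. All 8 synaptic fibre genes rose, of which 4 met the minimum in xNMJ libraries alone. Of 6 muscle fibre genes 5 fell, Myh4 among them by 0.42 (adjusted p = 0.0456), a call lost in 21 of the 32 fits without 1 library and a value of 0.17 by limma on log2(TPM + 1). How far each of these cells contributes to the macrophage and complement transcripts was not tested.

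Markers of other leukocytes were read in the same contrast, beside the same shares of all tested genes and the 30.8% with an unadjusted p under 0.05. Of 4 tested neutrophil markers, which share Lyz2 with macrophages, 0 rose and Cxcr2 fell by 0.69 (adjusted p = 3.07e-05), and the summed TPM of the list had medians of 47.11 in 10m NMJ and 55.02 in 10m xNMJ, and of 77.56 in 30m NMJ and 64.43 in 30m xNMJ. Its most abundant gene, S100a8, averaged 33.3 TPM. Of 3 tested T and NK cell markers, 2 B cell markers and 4 dendritic cell markers, 0 passed in either direction over both ages with edgeR or DESeq2. At an unadjusted p under 0.05 there was 1, Lck, a T cell kinase. Of 5 tested endothelial markers 0 rose and 2 fell (Cdh5 and Tie1), and of 5 red blood cell markers 0 passed with edgeR or DESeq2 and 4 had an unadjusted p under 0.05. The falls of Cxcr2, Cdh5 and Tie1 did not pass by limma on log2(TPM + 1).

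**Figure D4:**
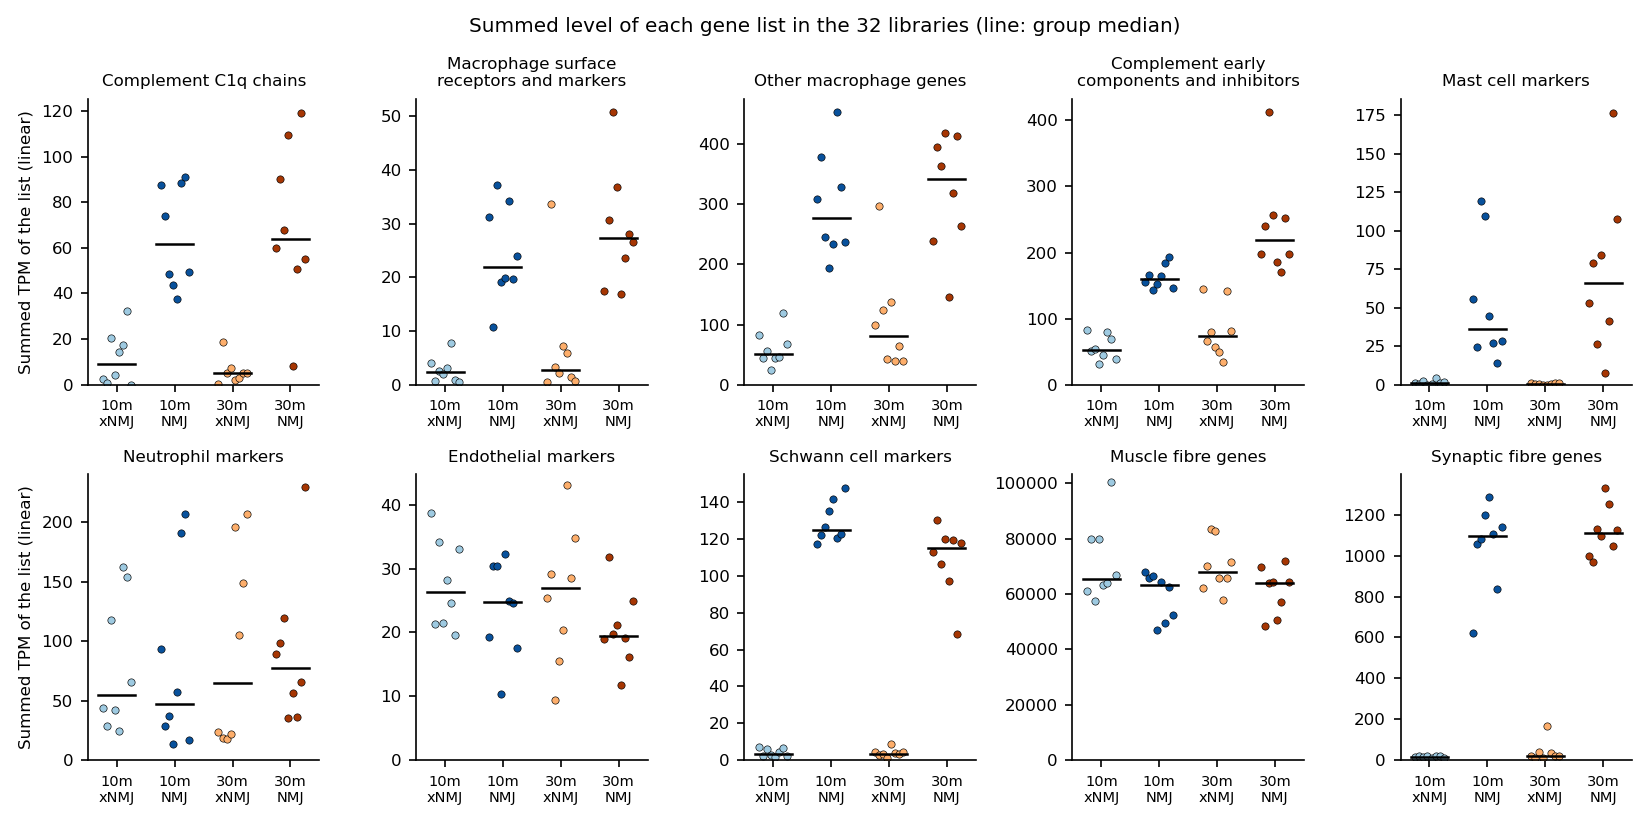
Summed TPM (vertical axes, linear, each from 0) of 10 gene lists in each of the 32 libraries, by group, with lines at the group medians. The C1q, macrophage, early complement, mast cell, Schwann cell and synaptic lists have higher medians in both NMJ groups, and the neutrophil and endothelial lists overlap widely between regions.

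Within groups the 10 genes gave mostly low correlations with each other. After group means were removed, Pearson's r over the 32 libraries for the 45 pairs had a median of 0.12 and ranged from -0.32 to 0.54, the highest being Cd68 with Lyz2. C1qb and C1qc had 0.46, C1qa and C1qb 0.35, and C1qa and C1qc 0.33. The 10 tested genes most like the mean of the C1q chains were Rexo1 (0.72), Cpt1c (0.71), Slc48a1 (0.69), F730043M19Rik, Seh1l, Mbtps1, Akap1, Swsap1, Gm26648 and Snap29 (0.62), and none of them was in a list used here. Within NMJ and within xNMJ libraries the values were 0.81 and 0.69 for Rexo1, 0.78 and 0.69 for Cpt1c, and 0.69 and 0.69 for Slc48a1. Those of Seh1l (0.025 and 0.81) and Mbtps1 (-0.17 and 0.85) were high in the xNMJ libraries alone, where C1q counts were low. All points of a library share its depth and captured tissue, and many of the underlying counts were low, so these correlations are given as descriptions.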

How the data were processed

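RNA from the captured regions was amplified with the SMART-Seq v4 kit and sequenced in 32 libraries. Per the submitters' processing notes and the study's methods, the authors trimmed reads with cutadapt 1.9.1 and assigned them with kallisto 0.43.1 to protein-coding transcripts on GRCm38, without strand, dividing reads shared between transcripts. The deposited gene counts are whole numbers. The deposited TPM values were scaled by the authors for transcript length and for the total of each library. Reads shared by near-identical genes would be split in the same way, which may affect Lyz1 and Lyz2, and the number of such reads was not measured. Gene positions came from GENCODE M21.

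Counts were tested with edgeR 4.0.16 (R 4.3.3) by the quasi-likelihood test on TMM factors, in 1 fit of the 4 groups with 7 contrasts, leaving out genes that reached 1 CPM in fewer than 8 libraries, two-sided and with Benjamini-Hochberg adjustment over 13990 genes and a threshold of 0.05. The procedure was tested on simulated data, but the outcome is not given here and no result rests on it. A limit of 3 counts per library (0.153 to 0.933 CPM) served as the floor. Intervals of ratios are exact at 95% and cover counting error only. Between 8 libraries of a group, 112 pairs differed by chi-square values of 24.5 to 405 per gene, so none was treated as a duplicate. Alternatives were DESeq2 1.42.0 and its size factors, no filter, insert size as a covariate, a replicate block, only the compared groups, limma 3.58.1 on log2(TPM + 1) and log2(TPM + 0.1), and leaving out each library.

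The members and the 18 further gene lists were chosen with earlier results of these data known. Named were all 10 members in every contrast, up to 6 genes per list and contrast with the smallest p among those passing, the most abundant gene of each list, and the 10 genes most correlated with the C1q mean on log2 CPM (prior count 2). Further list genes named beside these (C1ra, C3, Cx3cr1, Ptprc, Csf1, Il34, Ccl2, Spi1, Lck and Cybb), and Lyz1 for its likeness to Lyz2, were chosen after their values had been seen. Of the list genes, C5, C7, Ly6g, Cldn5 and Ufsp1 were not analysed here, and values of some others are not reported here.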

Additional observations from a re-analysis of the deposited data

Results flagged for a closer look

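In 4 of 40 groups of 8 libraries (10 genes in 4 groups), the highest library lay farther from the next, on the log2(CPM + 0.5) scale, than Dixon's critical share of the group's range for 8 samples. Chance gives about 1.95 such groups for continuous values, a figure that is no comparison for groups in which 1 library alone had counts, as in 3 of these 4. Cd14 in 10m xNMJ replicate 7 (0.115 CPM), Cd14 in 30m xNMJ replicate 4 (0.826 CPM) and Slamf9 in 10m xNMJ replicate 8 (0.178 CPM) were the only libraries of their groups with any count. Cd68 in 10m xNMJ replicate 7 (4.04 CPM) stood above the other 7 libraries, of which 1 had counts.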

How the results depend on the processing

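The regional log2 fold changes, called or not, kept their direction in every alternative fit that tested the gene (Cd14 was tested in 24 of the 32 fits without 1 library) for all 10 members at 10 months and over both ages and for 9 of 10, all but Slamf9, at 30 months. The xNMJ medians of Cd14, Cd68 and Slamf9 at both ages lay under the 3-count floor of every library (0.153 to 0.933 CPM). So did those of C1qa and C1qb at 10 months and of Adgre1 at 30 months. The part of depth in this was not tested. The cause of the changes below was not tested. Limma on log2(TPM + 1) and log2(TPM + 0.1) called 2918 and 3014 genes at 10 months, 3561 and 3681 at 30 months and 6027 and 6295 over both ages, and all 10 members at 30 months with 0.1. By age in NMJ, DESeq2 called 1 gene and limma with 1 called 3. By age in xNMJ, the insert size term gave 2 genes and 0 members, the fit of only the compared groups 0 and 0, DESeq2 84 and 3, and both limma fits 0 and 0. DESeq2 called 9 genes in the interaction, and 48 genes and 2 members by age over both regions, where both limma fits called 1 gene.

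Without 1 library, genes and members called ranged from 1420 to 1705 and 6 to 8 at 10 months, 1100 to 1476 and 5 to 6 at 30 months, 2531 to 2955 and 7 to 10 over both ages, 0 to 0 and 0 to 0 by age in NMJ, 0 to 7 and 0 to 1 by age in xNMJ, 0 to 1 and 0 to 0 in the interaction, and 0 to 3 and 0 to 0 by age over both regions.

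Several log2 fold changes, none of them called except those of C1qbp and Myh4, turned sign. The 30-month regional value of Slamf9 was 0.89 and 2.41 by limma with 1 and 0.1, and -1.01 to 1.04 without 1 library. By age in NMJ, Lyz2 was -0.12 with insert size, and limma gave 0.041 and 0.19 for Adgre1, 0.12 and 0.14 for Mrc1 and, with 0.1, -0.029 for C1qa. By age in xNMJ, Cd68 was -0.021 with insert size, and limma gave 0.22 and 1.02 for C1qb and -0.032 and -0.033 for Mrc1. In the interaction, limma gave -0.50 and -1.33 for C1qb, 0.16 and 0.17 for Mrc1 and 0.50 and 1.27 for Cd14. Over both ages it gave 0.084 and 0.085 for C1qbp and 0.17 and 0.17 for Myh4, and by age over both regions, with 0.1, 0.35 for C1qb. Without 1 library, values by age in NMJ ran from -0.16 to 0.27 (C1qa), -0.58 to 0.25 (Adgre1), -0.067 to 0.41 (Csf1r), -0.17 to 0.082 (Mrc1) and -0.29 to 0.23 (Lyz2). By age in xNMJ they ran from -0.79 to 0.21 (C1qb), -0.28 to 1.27 (Csf1r), -0.38 to 1.31 (Mrc1), -1.34 to 3.04 (Cd14) and -0.58 to 4.19 (Cd68). In the interaction they ran from -0.42 to 0.57 (C1qb), -1.20 to 0.36 (Csf1r), -1.33 to 0.36 (Mrc1) and -2.55 to 1.83 (Cd14), and by age over both regions from -0.10 to 0.71 (Csf1r), -0.20 to 0.65 (Mrc1), -0.43 to 1.77 (Cd14) and -1.76 to 0.63 (Cd68).

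With a replicate block, members called were 9 of 10 at 10 months (with Adgre1 and Csf1r added), 7 at 30 months (with C1qa added), 10 over both ages and 0 in the interaction, among 1829, 1531, 3180 and 0 genes. The block gave 2.23 for Slamf9 at 30 months and, in the interaction, -1.83 for C1qb and 0.24 for Cd14. Deviations of same-numbered libraries correlated at 0.085 on average over 16 pairs (-0.0175 to 0.366), against -0.012 with other numbers, with 5 pairs over 0.1 and the own number best in 8 of 16, a hint from the data and not from the labels, so the pairing was not taken as shown. The block was not run for the age comparisons, nor the compared groups alone for the interaction and the averaged comparisons.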
